A study of Rattus norvegicus with 4 samples.

Results

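The Rab genes described here are the 62 genes of the array whose name in the scanner files begins with Rab followed by a digit, out of 30326 genes tested. They were chosen by name and not by any measured value. All 62 genes so named on the array were well above background on at least 2 of 4 arrays, 61 of them on all 4, and the exception was Rab25 with 2 arrays. The name rule gathers 54 Rab GTPases and 8 partner proteins that are not GTPases themselves, namely Rab11fip1 to Rab11fip5, Rab3gap2, Rab3ip and Rab3il1. The partner proteins are given apart.

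The shCM1 group held 2 cultures of rat cortical neurons infected with a lentivirus that expresses an shRNA against Cmtr1, and the shCTL group held 2 cultures infected with a control shRNA lentivirus. Both groups came from Sprague Dawley embryos of both sexes at stage E18.5, were infected on day 2 in vitro and were harvested on day 7. Total RNA was labelled with Cy3 for single-colour Agilent arrays, and the design text names 2 independent experiments. CMTR1 adds a methyl group to the sugar of the nucleotide next to the mRNA cap. Loss of CMTR1 and other actions of the shRNA cannot be told apart with 1 shRNA label.

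Rab proteins are small GTPases that mark the membranes of a cell. In the GTP-bound state a Rab recruits effectors such as motors, tethers and kinases, and hydrolysis of GTP, sped by GTPase-activating proteins, ends that state. Exchange factors load GTP, and GDP dissociation inhibitors keep the prenylated, inactive protein soluble. In neurons Rabs direct the synaptic vesicle cycle, endosomal sorting in axons and dendrites, and delivery of membrane to growing processes.

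Levels are log2 signals relative to the 75th percentile signal of the same array, and differences are shCM1 minus shCTL on that log2 scale, so a difference of 1 is a doubling. Each slide carried an shCM1 and an shCTL array of the same replicate number and was scanned on its own, replicate 1 being on slide 1 and replicate 2 on slide 2. The 75th percentile signal was 596.3 and 743.7 on the shCM1 arrays and 652.2 and 754.5 on the shCTL arrays, with between 84.0% and 90.4% of probes well above background. Cmtr1 itself was at -3.46 and -3.53 in the shCM1 arrays and -1.43 and -1.86 in the shCTL arrays, which is 27.7% of the control level (log2 difference -1.85, SE 0.22). All 10 neuronal markers examined were well above background on every array, and their median difference was -0.12. Within both slides 7 of them were lower and 0 higher, against 22.6% and 44% of all genes. Those shares include dim genes (mean signal under 100), whose median by this scaling was 0.21, against 0.02 for the rest. After quantile normalization Gap43 had -0.43, Tubb3 -0.31, Nefl -0.24, Nefm -0.18 and Rbfox3 -0.09. The others were nearer to no difference, with Snap25 at -0.04, Stmn2 -0.01, Map2 0.003, Dcx 0.03 and Syt1 0.09. Tubb3 and Gap43 were called lower in the limma fit with the slide as a block, against 2.99% of all genes. Summed over the list, the neuronal markers stood at 432.6 and 336.6 times the 75th percentile signal in shCM1 arrays and at 470.5 and 384.4 times in shCTL arrays.

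The promoters of 4 GTPases are shown first, because these 4 passed the limma fit with the slide as a block and have an entry in the RefSeq promoter table of build GRCr8. Rab29 (called Rab7l1 in the files) acts at the Golgi and on lysosomes, Rab10 in delivery to the plasma membrane, Rab40b in ubiquitin ligase complexes, and Rab17 in endosomal sorting of epithelial cells. Each window of 300 bases ends 50 bases into the annotated gene. Capitals mark matches on either strand to the CCAAT box (CCAAT) or the GC box (GGGCGG). The windows lie at chr13:45859788-45860087 on the plus strand for Rab29, and on the minus strand at chr6:32039505-32039804 for Rab10, chr10:107157326-107157625 for Rab40b and chr9:99013983-99014282 for Rab17.
Rab29: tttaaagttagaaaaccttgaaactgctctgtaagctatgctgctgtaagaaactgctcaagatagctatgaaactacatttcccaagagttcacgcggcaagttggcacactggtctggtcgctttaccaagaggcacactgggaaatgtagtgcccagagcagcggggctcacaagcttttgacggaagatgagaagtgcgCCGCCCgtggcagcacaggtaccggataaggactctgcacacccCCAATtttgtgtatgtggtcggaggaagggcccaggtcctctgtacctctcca
Rab10: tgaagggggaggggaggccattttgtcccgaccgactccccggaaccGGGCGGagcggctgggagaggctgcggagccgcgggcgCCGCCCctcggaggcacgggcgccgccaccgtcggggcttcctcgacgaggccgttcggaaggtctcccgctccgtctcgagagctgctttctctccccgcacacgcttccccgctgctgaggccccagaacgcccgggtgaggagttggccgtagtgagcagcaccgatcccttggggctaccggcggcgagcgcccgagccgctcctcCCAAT
Rab40b: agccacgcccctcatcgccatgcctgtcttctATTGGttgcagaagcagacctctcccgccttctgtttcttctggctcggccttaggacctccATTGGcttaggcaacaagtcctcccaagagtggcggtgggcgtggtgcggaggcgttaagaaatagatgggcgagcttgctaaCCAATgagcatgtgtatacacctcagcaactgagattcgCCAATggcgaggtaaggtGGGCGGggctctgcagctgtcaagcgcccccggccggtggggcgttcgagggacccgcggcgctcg
Rab17: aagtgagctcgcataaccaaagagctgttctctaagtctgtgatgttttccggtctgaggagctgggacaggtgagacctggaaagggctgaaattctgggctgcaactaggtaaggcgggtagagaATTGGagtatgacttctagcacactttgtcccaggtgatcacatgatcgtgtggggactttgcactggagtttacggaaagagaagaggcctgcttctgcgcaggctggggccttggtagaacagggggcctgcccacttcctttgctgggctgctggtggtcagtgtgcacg

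The Rab40b window held 4 CCAAT boxes and 1 GC box, and none of these matches overlapped. The Rab29 window held 1 CCAAT box and 1 GC box, the Rab10 window 1 and 2, and the Rab17 window 1 CCAAT box and no GC box. Among the 49 Rab-named genes with a window, 18 (36.7%) held a CCAAT box, against 37.7% of the 27457 windows in the table. The GC box was in 39 of them (79.6%), against 34.9% of all windows. The E-box CACGTG was in 10.2% against 6.65%, the cyclic AMP response element TGACGTCA in 4.08% against 1.91%, and the TATA box TATAAA in 2.04% against 14.3%. The Rab windows were also richer in G and C, at a median of 64.3% against 52.3% over a table that includes non-coding genes. The first base of the annotated transcript, the nucleotide that CMTR1 methylates when it is the start in use, was A in Rab29 and Rab17 and C in Rab10 and Rab40b. Over the 49 windows it was G in 40.8%, C in 34.7%, A in 16.3% and T in 8.16%, against 30.6%, 24.2%, 29.8% and 15.3% of all windows. These matches describe letters and not binding or starts in use.

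Across the Rab-named genes the differences were small. In limma without a block, 0 of 62 had an adjusted p under 0.05, as had 0 of all genes (0%), and 0 of the 62 had an unadjusted p under 0.05, against 3% of all genes. With the slide as a block, limma called 7 of the 62 (11.3%), 2 higher and 5 lower, against 6.56% of all genes, of which 3.56% were higher and 2.99% lower. The count changed with the scaling. It was 3 after quantile normalization (4.84%, against 3.11% of all genes), 1 after cyclic loess (1.61% against 2.43%) and in the authors' table (1.61% against 2.26%), and 6 with normexp background correction (9.68% against 4.66%). The share of Rab genes called was thus above the share of all genes in some scalings and below it in others. With probes required to be well above background on all 4 arrays 7 of 61 were called (7.05% of all genes), and without a filter on dim probes 0 were (1.06% of all genes). Without a block, leaving out shCTL replicate 2 called 0 Rab genes and 1 gene in all (0.0033%). The blocked fit without an intensity trend in its variance called 0 Rab genes and 0 of all genes.

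The median difference of the 62 genes was 0.06, against 0.08 for all genes, with 0.05 on slide 1 and 0.08 on slide 2. The extremes were -0.56 for Rab29 and 0.95 for Rab17, and 41 of the 62 lay within 0.2 of zero. Within both slides 25 were higher and 14 lower in shCM1, and the other 23 pointed in opposite directions on the slides. Over all genes 44% were higher and 22.6% lower within both slides. The levels of the groups did not overlap for 10 Rab genes that were higher and 7 that were lower, against 21.6% and 10.1% of all genes. By 1.5-fold or more on slide 1 and again on slide 2, 2 Rab genes were higher, Rab17 and Rab11fip1, and 0 lower, against 1.79% and 0.623% of all genes.

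**Figure D1:**
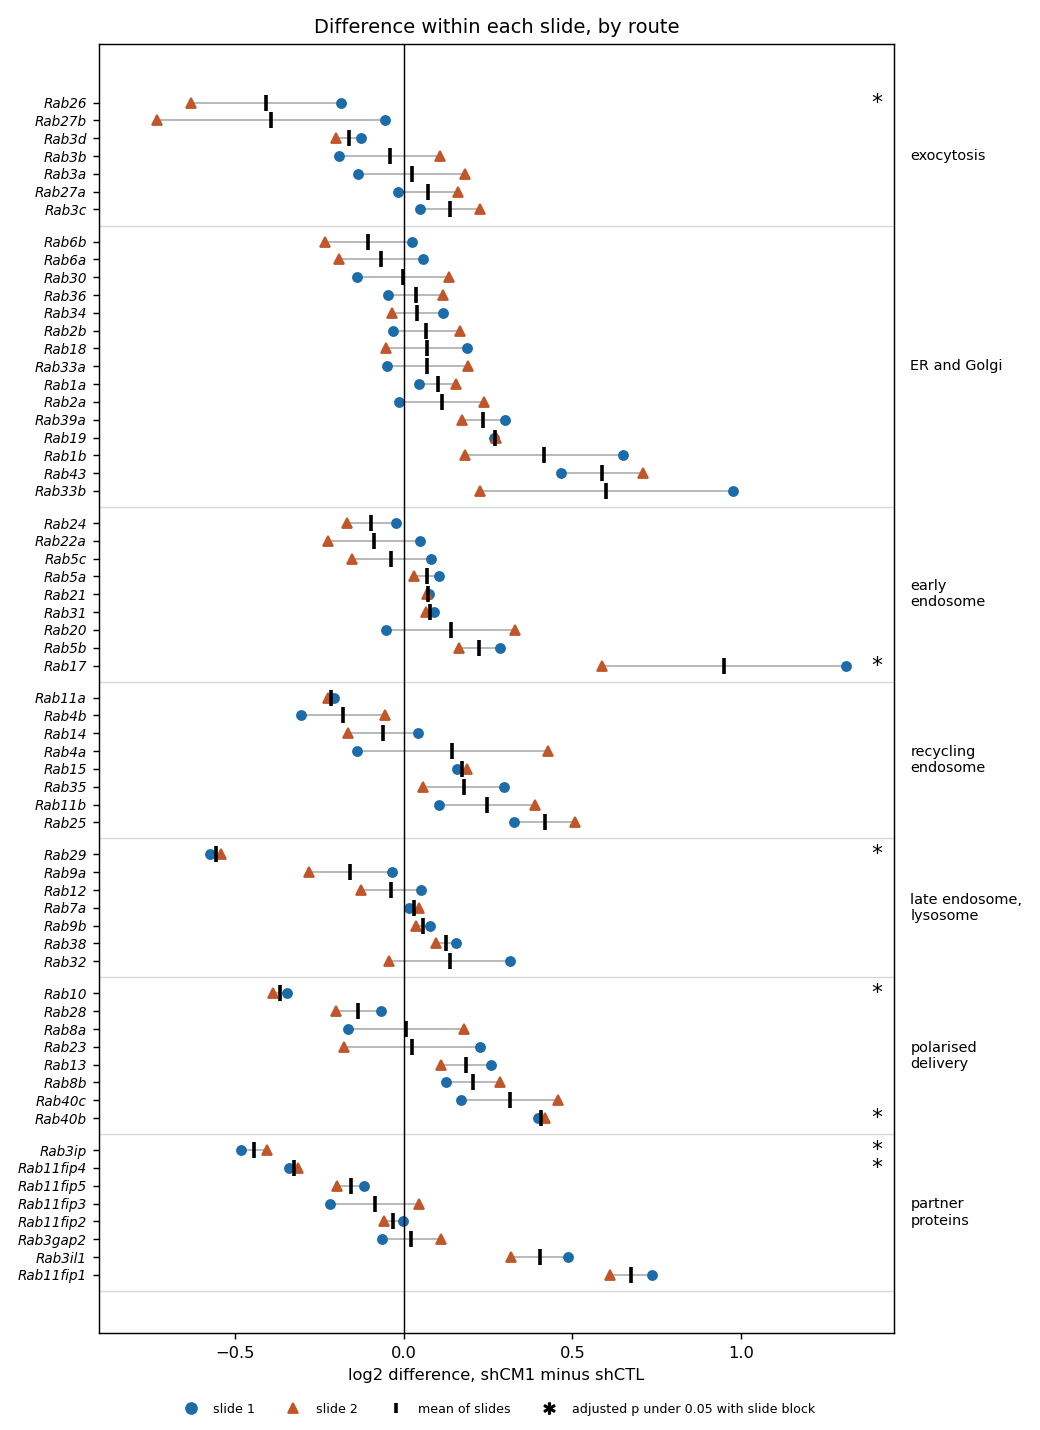
The log2 difference shCM1 minus shCTL (horizontal axis) of each of the 62 Rab-named genes within slide 1 (circles) and slide 2 (triangles), with the mean of the slides as a bar and genes grouped by route. Most bars lie within 0.2 of zero, and the 7 genes with a star passed the limma fit with the slide as a block.

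Many Rab genes differed more between the slides than between the groups. For 44 of the 62 the mean difference between slide 2 and slide 1 was larger in size than that between shCM1 and shCTL, against 62.7% of all genes. Rab26 stood higher on slide 2 by 0.94 in shCM1 and 1.38 in shCTL, and Rab27a by 1.14 and 0.96. Rab3a stood lower on slide 2, with -0.70 in shCM1 and -1.01 in shCTL, and Rab4b with -0.60 and -0.84. These genes separated the slides in the same direction in both groups. Whether a slide holds 1 experiment is not given in the labels, so culture, slide and scan cannot be told apart.

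Rabs of regulated exocytosis numbered 7, and their median difference was -0.04. With the block 0 passed higher and 1 passed lower, against 3.56% and 2.99% of all genes. Rab3a, the main Rab of synaptic vesicles, had levels of 3.30 and 2.60 in shCM1 arrays and 3.43 and 2.42 in shCTL arrays. The groups overlapped fully, and the slides parted them more than the shRNA did (difference 0.02, SE 0.40). Its paralogs Rab3b (-0.04) and Rab3c (0.14) did not pass. Rab3d, a Rab of secretory granules, had -0.44 and -0.42 in shCM1 arrays and -0.32 and -0.22 in shCTL arrays, and did not pass either. Another, dimmer probe of Rab3d pointed the other way, with 0.35.

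Rab26, a Rab of secretory granules that has been linked to synaptic vesicle autophagy, was at -0.36 and 0.58 in shCM1 arrays and -0.17 and 1.21 in shCTL arrays. It was lower within both slides, by -0.18 and -0.63, although the groups overlap across slides. The difference was -0.41 (SE 0.53 without a block and 0.12 with it), or 75.4% of the control level, and the blocked adjusted p from limma was 0.0400. Without shCTL replicate 1 it was -1.10, without shCM1 replicate 2 -0.87, without shCM1 replicate 1 0.06 and without shCTL replicate 2 0.28. Its direction thus turned without shCM1 replicate 1 or shCTL replicate 2. These fits have no block and leave the groups unbalanced over the slides. The gap of Rab26 between the slides (0.94 in shCM1 and 1.38 in shCTL) therefore enters these values, and they do not show how stable the within-slide difference is. Rab27b, which acts with Rab27a in docking of secretory vesicles, had -0.91 and -1.83 in shCM1 arrays and -0.85 and -1.10 in shCTL arrays. One array, shCM1 replicate 2, stood low, and the slides gave -0.05 and -0.73. The other 2 probes of Rab27b had 0.13 and 0.20 on slide 1 and -0.64 and -0.53 on slide 2, so that split was seen by all its probes, and Rab27b did not pass (blocked limma adjusted p = 0.105). Rab27a was dim, at -5.57 and -4.43 in shCM1 arrays and -5.55 and -4.59 in shCTL arrays. Its groups were alike within each slide, and its difference of 0.07 turned to -0.17 after quantile normalization.

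The 15 Rabs of the endoplasmic reticulum and Golgi had a median difference of 0.07, and 0 passed the blocked fit, against 6.56% of all genes. Rab1a, which acts in transport out of the endoplasmic reticulum, had 1.93 and 1.77 in shCM1 arrays and 1.89 and 1.61 in shCTL arrays. Rab2a, a Rab of the Golgi, had 4.63 and 4.62 in shCM1 arrays and 4.64 and 4.38 in shCTL arrays. Neither separated the groups, with differences of 0.10 and 0.11. Rab6a, of retrograde Golgi transport, had -0.63 and -0.44 in shCM1 arrays and -0.68 and -0.25 in shCTL arrays. Its neuron-enriched paralog Rab6b had 6.36 and 5.82 in shCM1 arrays and 6.33 and 6.05 in shCTL arrays. Both overlapped between groups, with differences of -0.07 and -0.10. Rab18, found on the endoplasmic reticulum and lipid droplets, had 0.50 and 0.73 in shCM1 arrays and 0.31 and 0.78 in shCTL arrays, and did not pass. Within both slides 6 of the 15 were higher and 0 lower, against 44% and 22.6% of all genes. The higher end was held by Rab33b (0.60), Rab43 (0.59) and Rab1b (0.42), of which Rab33b and Rab43 were dim.

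Rab1b is near in sequence to Rab1a, and its pair of probes shared 49 of 60 bases. Those probes had 0.42 and 0.25, and the blocked adjusted p of the brighter was 0.0975 in limma. Rab43, singled out after its values were seen, had -3.89 and -3.69 in shCM1 arrays and -4.36 and -4.40 in shCTL arrays. The shCM1 arrays were both above the shCTL arrays, but Rab43 did not pass (difference 0.59, blocked limma adjusted p = 0.0809). With normexp its difference was 0.28.

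Of 9 early endosomal Rabs, 1 passed with the block, against 6.56% of all genes, and the median difference was 0.07. Rab5a, the central Rab of early endosomes, had -2.21 and -2.15 in shCM1 arrays and -2.32 and -2.18 in shCTL arrays. Its small difference of 0.07 took the other sign after quantile normalization (-0.04). Rab5b had 0.22 and Rab5c -0.04. Rab21, which sorts integrins, had 1.44 and 1.25 in shCM1 arrays and 1.36 and 1.18 in shCTL arrays, a difference of 0.07 on each slide. Rab31 (0.08), Rab22a (-0.09) and Rab24 (-0.10) were as close to zero, and Rab20 had 0.14.

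Rab17 had -4.55 and -3.96 in shCM1 arrays and -5.86 and -4.54 in shCTL arrays. It was higher within both slides, by 1.31 and 0.59, with shCTL replicate 1 the lowest array and shCM1 replicate 1 close to shCTL replicate 2. The difference was 0.95 (SE 0.51 without a block, 0.25 with it), or 1.93-fold, and the blocked limma adjusted p was 0.0272. Rab17 is among the dimmest Rab genes here, with a mean signal of 29.2. With normexp the difference was 0.24 and the blocked adjusted p 0.129, and it missed the threshold after quantile normalization (0.137), with cyclic loess (0.172) and in the authors' table (0.160). Without shCTL replicate 1 it was 0.29, and without shCTL replicate 2 it was 1.61, in fits without a block that the gap between the slides enters.

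None of the 8 recycling Rabs passed the blocked fit, against 6.56% of all genes, and their median difference was 0.16. Rab11a, which carries receptors from recycling endosomes to the surface, had 2.92 and 2.71 in shCM1 arrays and 3.13 and 2.93 in shCTL arrays. It was lower by -0.21 and -0.22 within the slides and its groups did not overlap, yet the blocked adjusted p from limma was 0.142. The difference was -0.12 without shCTL replicate 1 and -0.11 without shCM1 replicate 2, in fits without a block that the gap between the slides enters. The other probes of Rab11a had -0.17 and -0.07. Its close paralog Rab11b, likewise singled out after its values were seen, pointed the other way, with 1.66 and 1.26 in shCM1 arrays and 1.55 and 0.87 in shCTL arrays (difference 0.25, blocked limma adjusted p = 0.149). The contrast between these paralogs was not tested. Rab4a, of fast recycling, had 0.86 and 0.86 in shCM1 arrays and 1.00 and 0.43 in shCTL arrays, with opposite directions on the slides. Rab4b had -0.18, Rab15 0.17 and Rab25 0.42. Rab14 had 4.15 and 4.22 in shCM1 arrays and 4.11 and 4.38 in shCTL arrays, and Rab35 had -1.79 and -1.78 in shCM1 arrays and -2.09 and -1.84 in shCTL arrays. Neither passed, and Rab14 turned from -0.06 to 0.01 after quantile normalization.

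Among 7 Rabs of late endosomes, lysosomes and related organelles the median difference was 0.03, and 1 passed the blocked fit, against 6.56% of all genes. Rab7a, the main late endosomal Rab, had 1.02 and 0.88 in shCM1 arrays and 1.00 and 0.83 in shCTL arrays, with within-slide differences of 0.02 and 0.05. It was thus among the flattest of the family. Rab9a, which acts in transport from late endosomes to the Golgi, had 0.58 and 0.84 in shCM1 arrays and 0.61 and 1.11 in shCTL arrays, and did not pass. Rab9b had 0.06, Rab12 -0.04 and Rab38 0.13.

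Rab29 had -0.96 and -0.28 in shCM1 arrays and -0.39 and 0.26 in shCTL arrays. Within each slide the shCM1 array was the lower one, by -0.57 and -0.54, while across slides shCM1 replicate 2 lay above shCTL replicate 1. The difference was -0.56 (SE 0.33 without a block, 0.11 with it), or 68.0% of the control level, and the blocked limma adjusted p was 0.00414. Rab29 passed the blocked fit in all 5 scalings, with differences from -0.59 to -0.43. It did not pass without an intensity trend or without a filter on dim probes. Because the slides lie apart, its value depended on which array was left out, from -0.90 without shCM1 replicate 2 and -0.88 without shCTL replicate 1 to -0.23 without shCTL replicate 2 and -0.21 without shCM1 replicate 1. A single probe measured Rab29.

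**Figure D2:**
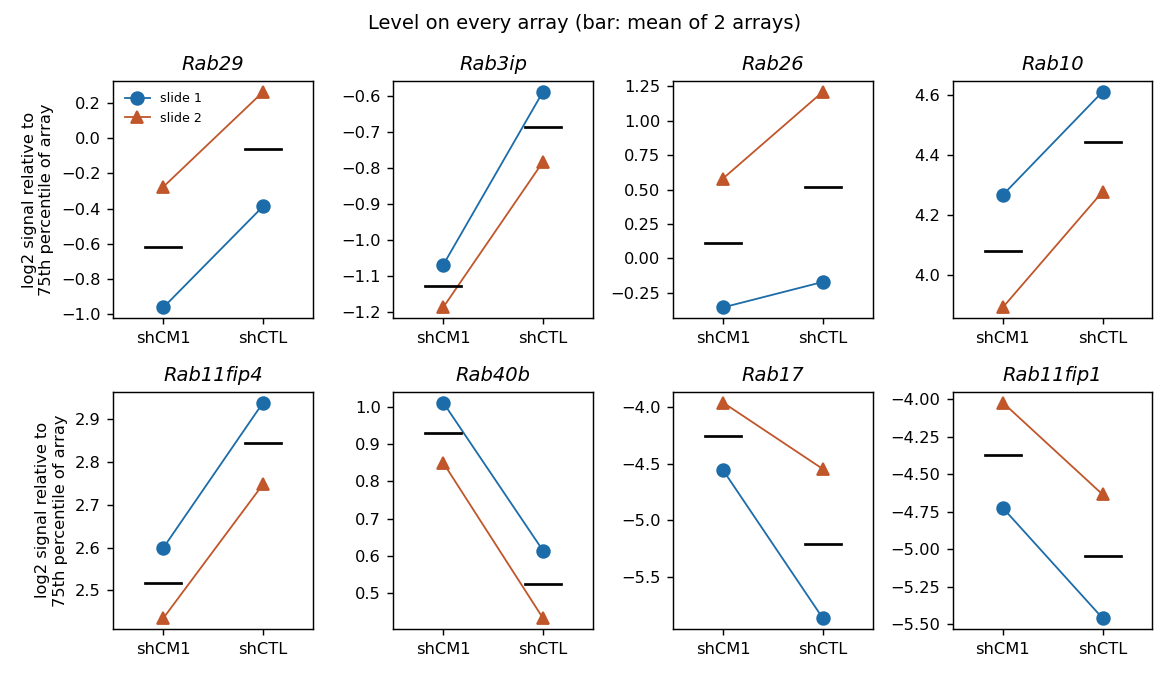
Level on every array (vertical axis, log2 signal relative to the 75th percentile; each panel has its own range) of the 7 genes that passed the slide-blocked fit and of Rab11fip1, in shCM1 (left) and shCTL (right). Lines join arrays of the same slide and bars are means of 2 arrays; for Rab29 the lines run in parallel with differences of -0.57 and -0.54.

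Rabs of polarised delivery and the cilium numbered 8. The blocked fit called 1 of them higher and 1 lower, against 3.56% and 2.99% of all genes, and their median difference was 0.10. Rab10 delivers vesicles to the plasma membrane, in neurons for axon growth. It had 4.27 and 3.89 in shCM1 arrays and 4.61 and 4.28 in shCTL arrays, lower within the slides by -0.34 and -0.39. The lowest shCTL array stood just above the highest shCM1 array. The difference was -0.37 (SE 0.20 without a block, 0.08 with it), or 77.6% of the control level, and the blocked limma adjusted p was 0.00914. It was -0.29 after quantile normalization, where it did not pass (blocked limma adjusted p = 0.0680), nor did it with cyclic loess (0.0742) or in the authors' table (0.0722). Without shCTL replicate 1 it was -0.20, without shCM1 replicate 2 -0.18 and without shCM1 replicate 1 -0.55. These fits have no block, so the gap of Rab10 between the slides enters these values too.

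Rab10 is covered by 4 probes, which are printed because the call rests on the brightest of them. Capitals mark the 35 bases that the middle pair share.
Rab10 probe with mean signal 13277: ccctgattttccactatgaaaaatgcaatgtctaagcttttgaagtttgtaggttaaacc
Rab10 probe with mean signal 4281: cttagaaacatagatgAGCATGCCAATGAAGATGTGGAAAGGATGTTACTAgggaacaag
Rab10 probe with mean signal 3832: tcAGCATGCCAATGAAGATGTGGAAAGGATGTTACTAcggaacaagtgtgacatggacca
Rab10 probe with mean signal 356.5: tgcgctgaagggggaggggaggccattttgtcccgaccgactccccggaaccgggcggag

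In that order the probes gave differences of -0.37, -0.21, -0.24 and -0.07. The pair with shared bases gave like values, and the dimmest probe had -0.16 on slide 1 and 0.01 on slide 2, so it did not show the difference on both slides. The dimmest probe shared 55 bases with positions 1 to 55 of the Rab10 promoter window printed above, on the same strand and before the annotated start. It was well above background on all 4 arrays.

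Rab40b went the other way. The Rab40 proteins carry a SOCS box and take part in ubiquitin ligase complexes. Rab40b had 1.01 and 0.85 in shCM1 arrays and 0.61 and 0.43 in shCTL arrays, higher by 0.40 and 0.42 within the slides with no overlap of the groups. The difference was 0.41 (SE 0.17 without a block, 0.10 with it), or 1.33-fold, and the blocked limma adjusted p was 0.0185. It passed after quantile normalization and with normexp (0.34), but missed the threshold with cyclic loess (blocked limma adjusted p = 0.0505) and in the authors' table (0.0621). Its paralog Rab40c, with 0.31, was higher within both slides and did not pass (blocked limma adjusted p = 0.181). Another, dimmer probe of Rab40c had -0.03 on slide 1 and 0.53 on slide 2. Rab8a, which carries cargo to cilia and dendrites, had 3.27 and 3.18 in shCM1 arrays and 3.43 and 3.0 in shCTL arrays. Its mean difference of 0.01 came from opposite directions on the slides, -0.16 and 0.18. Rab8b had 0.21, Rab13 0.18, Rab23 0.02 and Rab28 -0.13, and none of them passed.

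**Figure D3:**
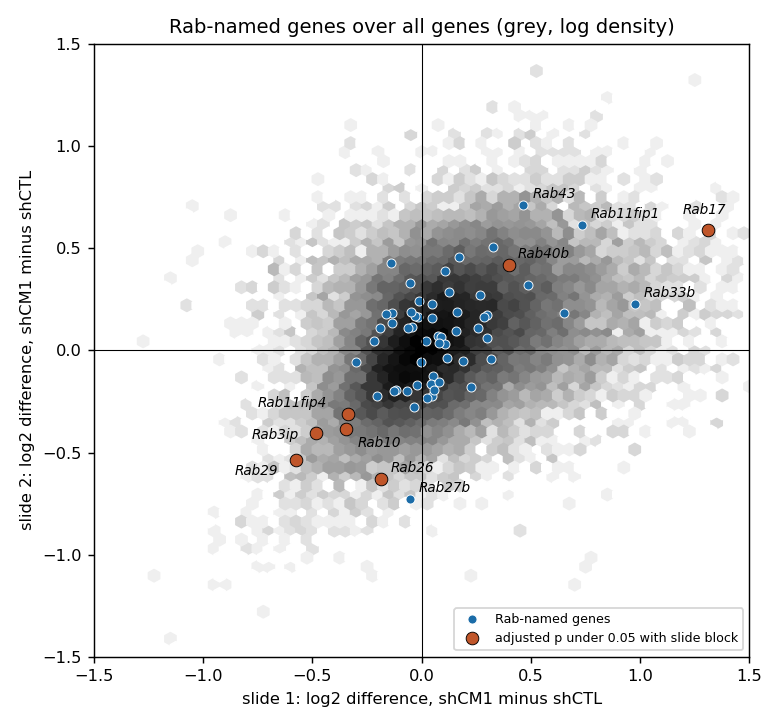
The log2 difference shCM1 minus shCTL of each gene on slide 1 (horizontal axis) and slide 2 (vertical axis), with the density of all genes in grey on a log scale, the 62 Rab-named genes in blue and the 7 that passed the slide-blocked fit in orange. Rab29 (-0.57 and -0.54) and Rab40b (0.40 and 0.42) lie near the diagonal, while Rab27b (-0.05 and -0.73) and Rab33b (0.97 and 0.23) do not.

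Of the 8 Rab-named partner proteins 2 passed the blocked fit, both lower, against 2.99% of all genes. Rab3ip, also known as Rabin8, is an exchange factor for Rab8. It had -1.07 and -1.19 in shCM1 arrays and -0.59 and -0.78 in shCTL arrays, so both shCM1 arrays were below both shCTL arrays. The difference was -0.44 (SE 0.18 without a block, 0.12 with it), or 73.5% of the control level, and the blocked limma adjusted p was 0.0261. Rab3ip passed after quantile normalization and with normexp, but missed the threshold with cyclic loess (blocked limma adjusted p = 0.0513) and in the authors' table (0.0546). Rab11fip4, a Rab11 effector, had 2.60 and 2.44 in shCM1 arrays and 2.94 and 2.75 in shCTL arrays. Its groups did not overlap either, and the difference was -0.33 (SE 0.16 without a block, 0.09 with it; blocked limma adjusted p = 0.0302). It did not pass after quantile normalization (0.137), cyclic loess (0.132) or in the authors' table (0.148), and its other probe had -0.17.

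The remaining partner proteins did not pass. Rab11fip1 had -4.72 and -4.02 in shCM1 arrays and -5.46 and -4.64 in shCTL arrays, at least 1.5-fold higher on each slide, but it was dim and had 0.24 with normexp. Its difference of 0.67 was 0.26 without shCTL replicate 1, 0.32 without shCM1 replicate 2, 1.02 without shCM1 replicate 1 and 1.08 without shCTL replicate 2. Rab3il1, another exchange factor, had 0.40. Rab11fip5 had -0.16, Rab11fip3 -0.09, Rab11fip2 -0.03 and Rab3gap2, a subunit of the complex that inactivates Rab3 and activates Rab18, 0.02.

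**Figure D4:**
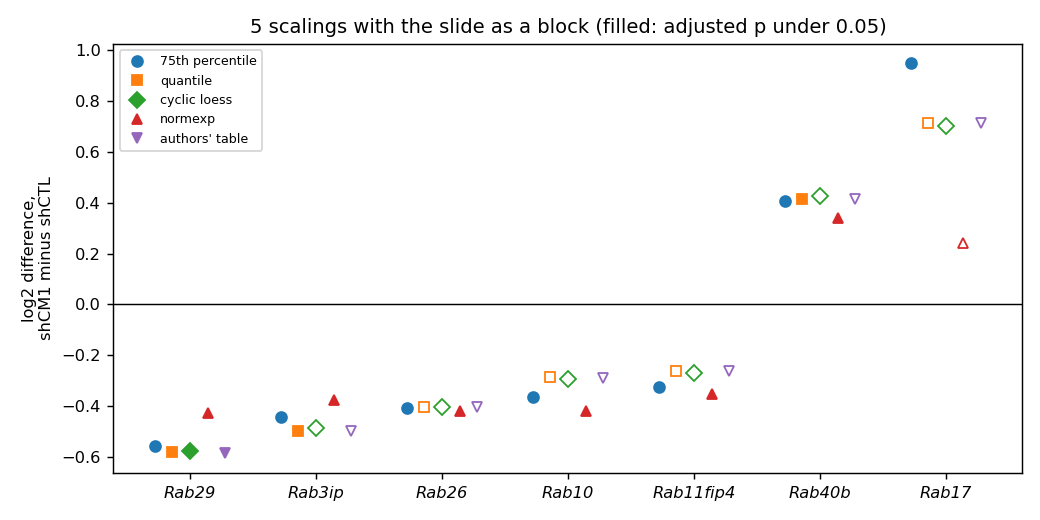
The log2 difference shCM1 minus shCTL (vertical axis) of the 7 called genes under 5 scalings, with filled symbols where the limma adjusted p with the slide as a block was under 0.05. Rab29 is filled in all 5, and Rab17 only with the 75th percentile scaling, where its difference is 0.95 against 0.24 with normexp.

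Dim Rab genes tended to be higher in shCM1 by the 75th percentile scaling. The 12 Rab genes with a mean signal under 100 had a median difference of 0.34, and 11 of them were above zero, while the other 50 had a median of 0.03. Over all genes the medians were 0.21 for dim genes and 0.02 for the rest. Across the 62 genes, which share the same arrays, the correlation of log2 mean signal with the difference was -0.54, against -0.39 over all genes. After quantile normalization it was -0.20 for the Rab genes and -0.03 over all genes, and the dim medians were 0.08 and 0.01. With normexp it was -0.41 for the Rab genes and -0.34 over all genes, and the dim medians were 0.11 and 0.09. The limit of 100 was chosen after the values were seen.

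**Figure D5:**
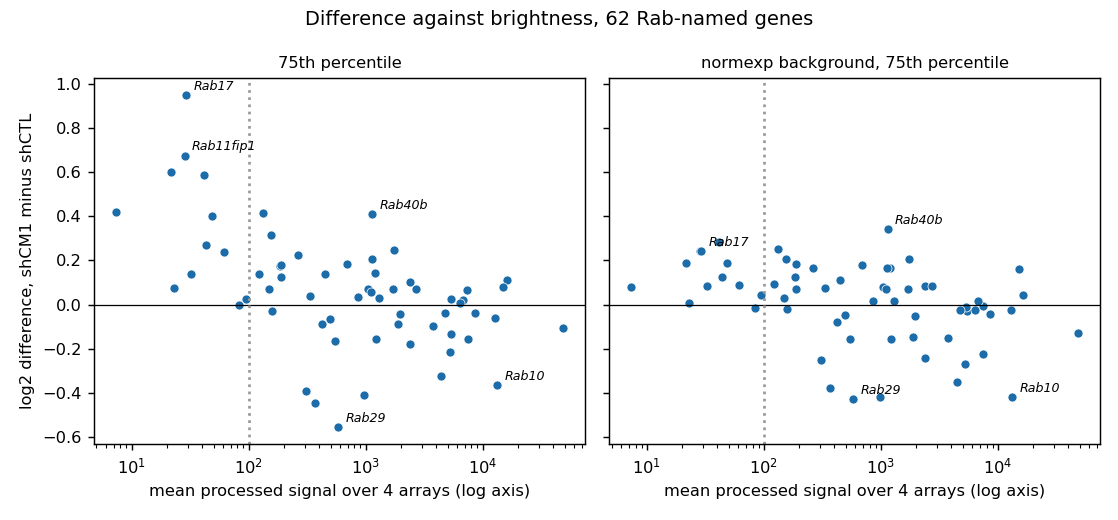
The log2 difference shCM1 minus shCTL (vertical axis) of the 62 Rab-named genes against mean processed signal over 4 arrays (log axis), by the 75th percentile scaling and with normexp background correction, with a dotted line at a signal of 100. Left of the line the median is 0.34 with the 75th percentile and 0.11 with normexp, and Rab29, Rab10 and Rab40b lie to the right of it.

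The genes that act on Rabs were read from the same fits. The 4 lists held 124 measured genes, 8 of which are the Rab-named partner proteins above. With the block 2 were higher and 7 lower in limma, which is 7.26% against 6.56% of all genes, and their median difference was 0.03. Without a block 0 passed in limma, and 4 of the 124 had an unadjusted p under 0.05, against 3% of all genes.

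Among 11 measured genes for dissociation inhibitors, escort and prenylation, 2 fell with the block and 0 rose, against 2.99% and 3.56% of all genes, and 6 were lower within both slides, against 22.6% of all genes. Gdi2, a GDP dissociation inhibitor that extracts inactive Rabs from membranes, had 2.90 and 2.81 in shCM1 arrays and 3.33 and 3.41 in shCTL arrays. It stood lower in both shCM1 arrays (difference -0.51, SE 0.14) and passed the blocked fit in all 5 scalings. Yipf1, of a family that binds prenylated Rabs, had 2.93 and 2.58 in shCM1 arrays and 3.28 and 3.02 in shCTL arrays (difference -0.40, SE 0.19). It passed only with the 75th percentile and normexp, and had -0.22 without shCM1 replicate 2. The median of the list was -0.12.

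Of 33 exchange factors only Rab3ip passed, against 6.56% of all genes. Of 26 GTPase-activating proteins 2 rose and 2 fell with the block, against 3.56% and 2.99% of all genes. Tbc1d22b had 2.03 and 1.78 in shCM1 arrays and 2.52 and 2.31 in shCTL arrays, a difference of -0.51 (SE 0.17) that passed in all 5 scalings. Its paralog Tbc1d22a had -1.08 and -1.19 in shCM1 arrays and -1.64 and -1.52 in shCTL arrays, a difference of 0.44 (SE 0.17). These paralogs moved in opposite directions in the blocked fit, though Tbc1d22a did not pass under any of the other 4 scalings. Tbc1d7, a subunit of the TSC complex, had a difference of -0.48 (SE 0.19) and did not pass with normexp (blocked limma adjusted p = 0.0571). Tbc1d10c, known from blood cells, had 0.49 (SE 0.39) and passed under none of the other 4 scalings. Within the slides Tbc1d10c was higher by 0.55 and 0.43. Tbc1d10c had 0.86 without shCTL replicate 1, 0.92 without shCM1 replicate 2, 0.12 without shCTL replicate 2 and 0.06 without shCM1 replicate 1. These fits have no block and are unbalanced over the slides, so they do not show how stable the within-slide difference is.

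Of 54 effectors 2 fell and 0 rose, against 2.99% and 3.56% of all genes. Beside Rab11fip4 this was Acap2, an effector of Rab35, with 0.17 and 0.73 in shCM1 arrays and 0.58 and 1.22 in shCTL arrays. Within each slide the shCM1 array was the lower, by -0.40 and -0.49 (difference -0.44, SE 0.30). Acap2 passed after quantile normalization but not with cyclic loess (blocked limma adjusted p = 0.0507), normexp (0.0617) or the authors' table (0.0551). It had -0.76 without shCTL replicate 1, -0.72 without shCM1 replicate 2, -0.17 without shCM1 replicate 1 and -0.12 without shCTL replicate 2. These fits have no block, so the gap of Acap2 between the slides enters these values.

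Markers of other cell types were measured in the cultures, and fewer cells of a type and less RNA per cell cannot be told apart in bulk RNA. Of 18 microglial markers, 17 were higher on each slide (median difference 0.68), against 44% of all genes, and 8 rose in the blocked fit, against 3.56% of all genes. Their summed level was 4.87 and 3.81 times the 75th percentile signal in shCM1 arrays and 3.14 and 2.84 times in shCTL arrays, with Cx3cr1 and Tmem119 well above background on fewer than all arrays. Many of the microglial markers were dim. With normexp each of their differences kept its sign and was smaller in size, for example 0.42 against 1.30 for Aif1 and 0.79 against 0.97 for Tyrobp. Rab32, a Rab of lysosome-related organelles that is abundant in myeloid cells, had -2.64 and -2.29 in shCM1 arrays and -2.96 and -2.25 in shCTL arrays. Its groups overlapped (difference 0.14), and a dimmer probe had -0.39. The part of microglial RNA in the Rab and partner genes was not tested. Astrocyte markers had a median of -0.04 with 0 of 10 called, and their sums were 133.3 and 136.6 in shCM1 arrays and 122.8 and 137.2 in shCTL arrays. Of 10 oligodendrocyte lineage markers 2 rose and 1 fell with the block (median 0.09), against 3.56% and 2.99% of all genes. Of 8 endothelial and pericyte markers 1 rose with the block (median 0.19), against 3.56% of all genes. Of 7 fibroblast markers 2 rose with the block (median 0.28), against the same 3.56%.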

How the data were processed

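Per the file headers, the intensity values of the deposited scanner files came from version 10.7.3.1 of Agilent Feature Extraction, with background already subtracted and no scaling between arrays. The authors' value table holds linear intensity values whose processing the sources used here do not give, and it correlated with the scanner files at 0.9998 or above on the log2 scale. It was used as an alternative only.

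Control spots and outlier spots were left out, spots of a probe were averaged, and each array's 75th percentile of log2 signal was subtracted. A probe was kept where 2 or more of the 4 arrays had it well above background (36701 of 41012). Each gene took its brightest probe, which gave 30326 genes. Names came from the files and a RefSeq table of GRCr8, where 19163 probes matched by accession, 2995 by symbol and 203 by an older symbol. Rab genes kept the name in the files, with 1 updated (Rab7l1 to Rab29).

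Tests used limma (version 3.58.1, R 4.3.3; intensity trend, two-sided, Benjamini-Hochberg over all genes, threshold 0.05). The main model had no block, and a second one, an alternative, had slide as a blocking term. SE is that of the fit without a block unless stated. The slide comes from the file headers. Arrays with the same number deviated together from their groups, with a correlation of 0.713 over genes. With 1 residual degree of freedom, the blocked fit leans on a prior of 17.7 degrees of freedom. With 2 arrays against 2, an exact permutation test cannot go below 0.333. Nothing states that the 2 arrays of a group came from separate animals beyond the 2 experiments. The p-values thus cannot be read as spread between animals, and with 2 arrays per group they are imprecise. In the blocked fit the p-values rest mostly on variance pooled over genes of like signal, and little on a gene's own spread. The fit without a block had 2 residual degrees of freedom and a prior of 3.38.

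The fits were tested on simulated data. The members, gene lists and tests were chosen with earlier results of these data known. Genes named with every array's level were those past either fit, those that differed by 1.5-fold or more one way on each slide, and the best known Rab of each route. Rab43 and Rab11b were added after their values were seen. For the partner lists the named genes were up to 4 per list past the blocked fit. Alternatives were the scaling, background correction, dim-probe filter, variance trend, single arrays and other probes. Every fit that left out a single array had no block, so gaps between the slides enter its values.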

Additional observations from a re-analysis of the deposited data

How the results depend on the processing

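Without a block no alternative scaling, filter or variance setting called any Rab gene or partner gene in limma. Leaving out single arrays gave 0 to 1 calls among all genes and 0 among Rab genes. With the slide as a replicate block, the counts over all genes, Rab genes and partner genes were 1989, 7 and 9. They were 944, 3 and 5 after quantile normalization with the block, 738, 1 and 3 after cyclic loess, 1412, 6 and 7 with normexp, 684, 1 and 3 in the authors' table, 1967, 7 and 10 with probes well above background on all 4 arrays, and 361, 0 and 2 without a filter on dim probes. The block without an intensity trend called 0 in each. The share called higher over all genes also moved: 1081 were higher and 908 lower with the 75th percentile, against 364 and 580 with quantile scaling, 272 and 466 with cyclic loess, 617 and 795 with normexp and 248 and 436 in the authors' table. The median difference of the Rab genes was 0.06 and moved to 0.04 (0.035) with normexp, with or without the block, by more than the spread of the slides (SD 0.025).

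The sign of some Rab genes turned, among them 1 of the 7 called with the block, Rab26, when single arrays were left out. With normexp Rab3a had -0.011 and Rab8a -0.024. With quantile normalization, cyclic loess and the authors' table in that order, Rab5a had -0.039, -0.036 and -0.039, Rab14 0.010, 0.013 and 0.015, and Rab27a -0.17, -0.18 and -0.17, and the block left these values as they were. Other probes gave 0.071 for Rab3b, 0.35 for Rab3d, 0.026 for Rab6a and -0.39 for Rab32. Leaving out single arrays, where the remaining groups are unbalanced over the slides, gave -0.48 to 0.53 for Rab3a, -0.50 to 0.64 for Rab27a, -1.10 to 0.28 for Rab26, -0.85 to 0.071 for Rab27b, -0.31 to 0.23 for Rab3b, -0.072 to 0.35 for Rab3c, -0.036 to 0.24 for Rab1a, -0.019 to 0.25 for Rab2a, -0.28 to 0.15 for Rab6a, -0.37 to 0.17 for Rab6b, -0.17 to 0.30 for Rab18, -0.022 to 0.17 for Rab21, -0.14 to 0.43 for Rab4a, -0.19 to 0.075 for Rab14, -0.054 to 0.12 for Rab7a, -0.41 to 0.094 for Rab9a, -0.22 to 0.49 for Rab32 and -0.20 to 0.22 for Rab8a. A lone array was assumed to vary like the other group. The cause of these changes was not tested.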

Other observations

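Some genes outside the name rule belong to the Rab family, share its fold or, like Rab5if, only carry Rab in their current name. Rabl6 had a log2 difference of -0.16, Ift27 -0.12, Rabl3 0.09 and Rabl2 0.00, and none passed limma with or without the block. Rasef, a Rab with an EF-hand, had levels of -5.42 and -5.50 in shCM1 arrays and -6.84 and -6.09 in shCTL arrays. It was higher on both slides (1.42 and 0.59) but was well above background on 3 of 4 arrays and did not pass (blocked limma adjusted p = 0.110). Rab5if, carried under an older identifier in the files, had 4.65 and 4.07 in shCM1 arrays and 4.65 and 4.45 in shCTL arrays, so only slide 2 showed a difference (-0.38). These genes were chosen after the results were known.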
